A study of Mus musculus with 4 samples.

Results

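The genes described here mark the macrophages of erythroblastic islands: Adgre1, Vcam1, C1qa, C1qb, C1qc, Spic, Cd68, Csf1r, Cd5l and Axl. They were read from arrays of sorted mouse erythroblasts and were found by their symbols; the list itself was drawn up with earlier results of these data known. Each of the 10 had exactly 1 probe set annotated to it and to no other gene, so no choice between probe sets arose. They are 10 of the 19938 genes that were represented in this way.

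The study compared bone marrow erythroblasts of mice lacking Parp2, whose product adds ADP-ribose chains to proteins at sites of DNA damage, with those of wild type mice. Its 4 arrays held 2 samples with the genotype Parp-2-/- and 2 samples labelled WT, all on the strain background C57BL/6. In both genotypes the cells were bone marrow cells sorted as Ter119+CD71+, that is for the erythroid surface antigen Ter119 and the transferrin receptor CD71. Age, sex, the number of animals behind each sample and the part of Parp2 that was deleted are not given in the sources used here. No label states that the samples come from different animals; p-values therefore cover only the spread among these 4 arrays, and that spread may be technical. Each sample title ends with a number, 1 or 2 within each genotype, whose meaning is not given. The titles also open with a running number that places both wild type samples before both knockout samples, so that an order of that kind and the genotype cannot be told apart.

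An erythroblastic island is a macrophage ringed by maturing erythroblasts, and it is the niche in which red cells complete their development in the bone marrow, spleen and fetal liver. The central macrophage holds erythroblasts through adhesion molecules, hands them iron, and engulfs the nuclei they expel. Its identity rests on the growth factor receptor encoded by Csf1r and, in cells that recycle iron from old red cells, on the transcription factor encoded by Spic. Several of its genes are shared with other cells: monocytes also carry Adgre1, Cd68 and Csf1r, and marrow stroma and activated endothelium also carry Vcam1.

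Erythroblast markers were bright on every array, with a mean log2 value over 15 measured markers of 9.93 and 11.0 on the wild type arrays numbered 1 and 2 and of 10.4 and 10.8 on the knockout arrays numbered 1 and 2. The values of Parp2 itself were 7.65 or more in wild type and 7.11 or less in the knockout, without overlap. The knockout array numbered 2 had the narrowest interquartile range of values, 1.98 against 2.62 to 2.94 on the other arrays. The limma test over 23410 annotated probe sets called 0 of them between the genotypes at a Benjamini-Hochberg adjusted p under 0.05, and 486 had an unadjusted p under 0.05. Between the title numbers it called 724, or 3.09% of the probe sets tested, but 0 when arrays were centred on their medians or quantile-normalised again, and 0 over all rows of the table.

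The 10 genes fell into 2 groups by how their 4 values were ordered. Adgre1, Cd68 and Csf1r read lower on both knockout arrays than on both wild type arrays. Vcam1, Spic, C1qa, C1qb, C1qc, Axl and Cd5l read higher on both arrays numbered 2 than on both arrays numbered 1, whichever the genotype; after centring C1qb left this group. Knockout values lay below wild type values without overlap for 9.62% of all genes, against 3 of the 10 genes, and above them for 16.4%, against 0 of the 10. Values numbered 2 lay above those numbered 1 without overlap for 25.4% of all genes, against 7 of the 10, and below them for 20.9%, against 0 of the 10. In counts these were 5074 and 4164 of the 19938 genes, but 3058 and 6094 after centring and 4553 and 4558 after repeated quantile normalisation. Those 7 stayed 7 after repeated quantile normalisation and were 6 after centring, while the 3 stayed 3 under both.

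**Figure D1:**
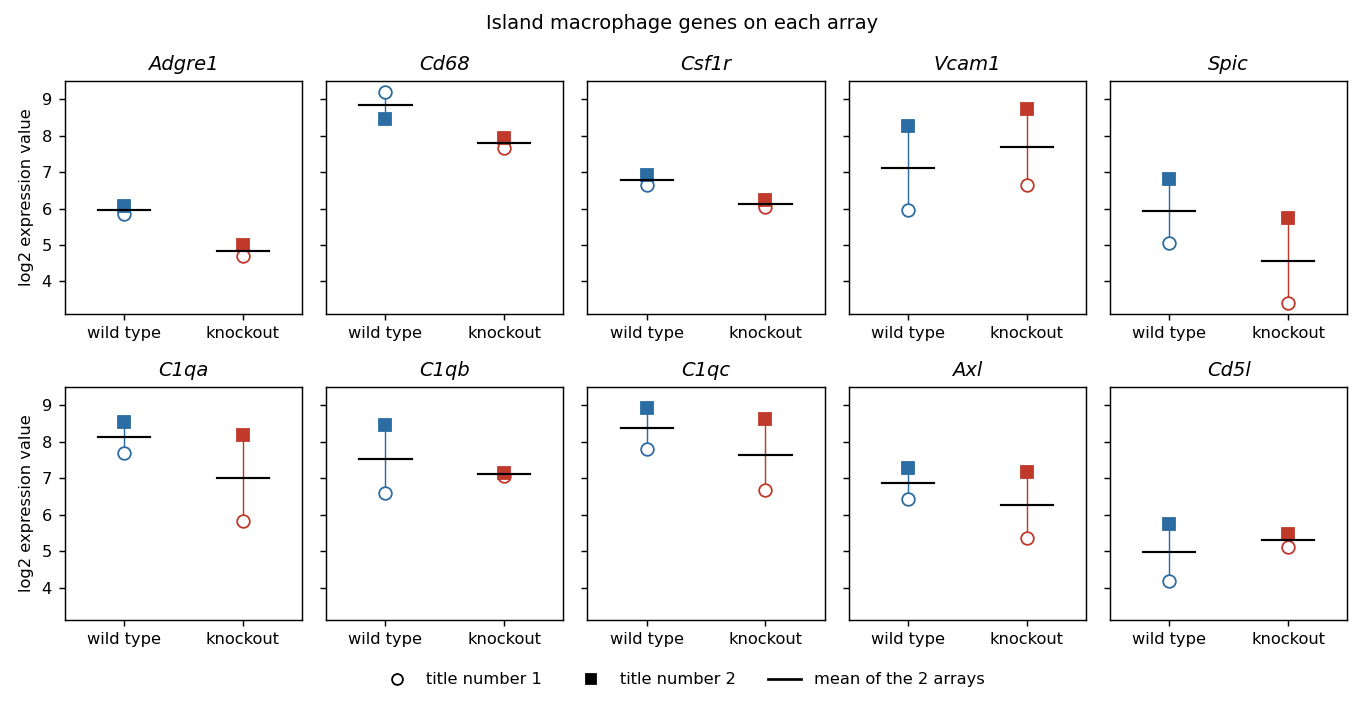
Log2 expression value (vertical axis) of each gene on the wild type arrays (blue) and the knockout arrays (red), 2 arrays per genotype, with open circles for title number 1, filled squares for title number 2 and black bars for the mean. In Adgre1, Cd68 and Csf1r the genotypes do not overlap, and in the other 7 genes both squares lie above both circles.

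Adgre1 (probe set 10446282) encodes F4/80, the adhesion receptor by which mouse macrophages are usually recognised. Its log2 values were 5.87 and 6.06 on the wild type arrays numbered 1 and 2, and 4.69 and 5.0 on the knockout arrays numbered 1 and 2. The arrays of a genotype lay close together and the genotypes were well apart. The knockout mean was 1.12 ± 0.36 (SE, n = 2 per genotype) below the wild type mean in log2 units, which is 2.17-fold lower. The limma test gave an unadjusted p = 0.0186 and an adjusted p = 0.9999 over all annotated probe sets, so the difference did not pass.

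Cd68 (probe set 10387536) encodes a heavily glycosylated protein of late endosomes and lysosomes in mononuclear phagocytes. It read 9.21 and 8.45 in wild type and 7.67 and 7.95 in the knockout, in the order of the title numbers. The wild type array numbered 1 was the highest, and both knockout arrays were below both wild type arrays. The difference was -1.02 ± 0.41 (SE, n = 2 per genotype), 2.03-fold, with a limma unadjusted p = 0.0432 and an adjusted p = 0.9999.

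Csf1r (probe set 10456071) encodes the receptor for the macrophage growth factors CSF1 and IL-34, on which most tissue macrophages depend. It read 6.65 and 6.91 in wild type and 6.04 and 6.22 in the knockout. The genotypes were again separate, by the smallest margin of the 3 genes. The difference was -0.65 ± 0.36 (SE, n = 2 per genotype), 1.57-fold, with a limma unadjusted p = 0.116. Of the 10 genes 2, Adgre1 and Cd68, had an unadjusted p under 0.05, which 2.08% of probe sets had, and 0 passed the adjusted test.

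In these bulk samples, fewer cells of a type and less RNA per cell cannot be told apart. The ordering of these 3 genes was also found among monocyte markers. It was found as well among neutrophil and B cell markers, described below, with 15 of 18 and 9 of 12 lower without overlap. Of 13 measured monocyte markers, 11 had a lower knockout mean, as 41.5% of all genes did. Without overlap 10 were lower, as 9.62% of all genes were. The median difference of the monocyte list was -0.97 against +0.08 over all genes. The mean log2 value over the monocyte list was 7.96 and 7.46 in wild type and 6.78 and 6.57 in the knockout. Csf1r stands in that list as well, and Ly6c1 and Ly6c2 had no probe set of their own. The 3 monocyte genes of lowest p were Chil3 (-1.96), F13a1 (-1.62), a coagulation factor subunit of monocytes, and Ms4a6c (-1.98), and 0 of the list passed the adjusted test. Lyz2, the abundant lysozyme of myeloid cells, was at -0.97 and Ccr2, the chemokine receptor of inflammatory monocytes, at -1.0 with overlap. The 2 genes of the list with a higher knockout mean were Cx3cr1 (+0.19) and Cd14 (+0.07). The part of monocytes, or of the other cells named, in the lower Adgre1, Cd68 and Csf1r values was not tested.

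Vcam1 (probe set 10501608) encodes the adhesion molecule with which the central macrophage binds the integrin alpha4 beta1 of erythroblasts. It read 5.95 and 8.26 in wild type and 6.65 and 8.74 in the knockout. Both arrays numbered 2 were high and both numbered 1 low, and the genotypes overlapped. The mean of the arrays numbered 2 was 2.20 ± 0.36 (SE, n = 2 per number) above that of the arrays numbered 1, a 4.60-fold higher level, with a limma adjusted p = 0.0229 over all annotated probe sets.

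Vcam1 was the 1 gene of the 10 to pass the test between the title numbers, as 0.94% of probe sets did with higher values on number 2, and that call depended on the scaling. The adjusted p = 0.0773 with arrays centred on their medians and 0.128 after repeated quantile normalisation, with differences of +2.02 and +2.46. Over all rows of the table the adjusted p = 0.133. It was 0.141 without the wild type array numbered 2 and 0.344 without the knockout array numbered 2. By genotype Vcam1 differed by +0.59 ± 0.92 (SE, n = 2 per genotype), less than the spread between arrays of a genotype.

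Spic (probe set 10371662) encodes an ETS-family transcription factor, a relative of PU.1, that is required in mice for the red pulp macrophages of the spleen. It read 5.06 and 6.82 in wild type and 3.41 and 5.74 in the knockout. The lowest value was on the knockout array numbered 1, and the knockout array numbered 2 was above the wild type array numbered 1, so the genotypes overlapped. Number 2 exceeded number 1 by 2.05 ± 0.54 (SE, n = 2 per number), with a limma adjusted p = 0.0724 that did not pass. The genotype difference, -1.37 ± 0.87 (SE, n = 2 per genotype), was the largest of the 10 in size but had a limma unadjusted p = 0.16.

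C1qa, C1qb and C1qc encode the A, B and C chains of C1q, the recognition protein that opens the classical complement pathway and that macrophages secrete and use to bind dying cells. In the reference annotation the 3 genes lie next to each other in the order C1qb, C1qc, C1qa. C1qa (probe set 10517517) read 7.69 and 8.55 in wild type and 5.83 and 8.18 in the knockout. C1qc (probe set 10517513) read 7.81 and 8.93 in wild type and 6.67 and 8.62 in the knockout. Both followed the same order over the arrays, with the knockout array numbered 1 lowest and the wild type array numbered 2 highest.

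C1qb (probe set 10517508) read 6.60 and 8.46 in wild type and 7.07 and 7.14 in the knockout. It departed from its partners on 2 arrays, since its lowest value was on the wild type array numbered 1 and its 2 knockout values were nearly equal. Number 2 exceeded number 1 by 1.61 ± 0.53 for C1qa, by 1.54 ± 0.41 for C1qc and by 0.96 ± 0.44 for C1qb (SE, n = 2 per number). None of the 3 passed the limma test between the numbers, with adjusted p = 0.131, 0.0731 and 0.29. By genotype they differed by -1.12, -0.73 and -0.42 in the same order, each with SEs between 0.61 and 0.77.

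Axl (probe set 10561104) encodes a receptor tyrosine kinase of the TAM family, by which macrophages engulf apoptotic cells through the bridging protein Gas6. It read 6.44 and 7.28 in wild type and 5.37 and 7.17 in the knockout. The arrays numbered 2 were alike in the 2 genotypes, 0.11 apart, while those numbered 1 were 1.08 apart. Number 2 exceeded number 1 by 1.32 ± 0.39 (SE, n = 2 per number), with a limma adjusted p = 0.103.

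Cd5l (probe set 10492964) encodes a secreted scavenger protein of tissue macrophages, also known as AIM, that protects macrophages from apoptosis. It read 4.18 and 5.75 in wild type and 5.12 and 5.47 in the knockout. The wild type values enclosed the knockout values. With Spic it was 1 of 2 members whose mean lay below the table's median of 5.36, the level used as a filter on dim probe sets, which the other 8 passed. Number 2 exceeded number 1 by 0.96 ± 0.38 (SE, n = 2 per number), with a limma adjusted p = 0.21.

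The knockout and wild type arrays were then set against each other within and across the title numbers. Within number 1 the knockout was lower for 7 of the 10 genes, where 50.6% of all genes were, with a median difference of -1.11 against -0.01 over all genes. Within number 2 it was lower for 9 of the 10, where 41.7% of all genes were, with a median of -0.44 against +0.14. Both differences were negative for 7 genes, namely Adgre1, Cd68, Csf1r, Spic, C1qa, C1qc and Axl, and 20.7% of all genes had this ordering. Vcam1 was higher within both numbers, by 0.70 and 0.48, and C1qb and Cd5l had differences of opposite sign.

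Across the numbers the comparison turned on which array was taken. For the 10 genes its counts follow from the groups by ordering given above, so they restate that grouping and are no further result. The knockout array numbered 1 lay below the wild type array numbered 2 for 10 of the 10 genes, with a median difference of -1.50, where 48.1% of all genes did. The knockout array numbered 2 lay below the wild type array numbered 1 for 3 of the 10, with a median of +0.61, where 40.2% of all genes did. Those 3 were Adgre1, Cd68 and Csf1r, for which the 4 pairs gave differences from -1.37 to -0.86, from -1.54 to -0.50 and from -0.87 to -0.42. For Spic the 4 pairs ran from -3.42 to +0.68 and for Vcam1 from -1.61 to +2.79. The differences within a number were thus smaller in range than those across numbers for these 2 genes.

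**Figure D2:**
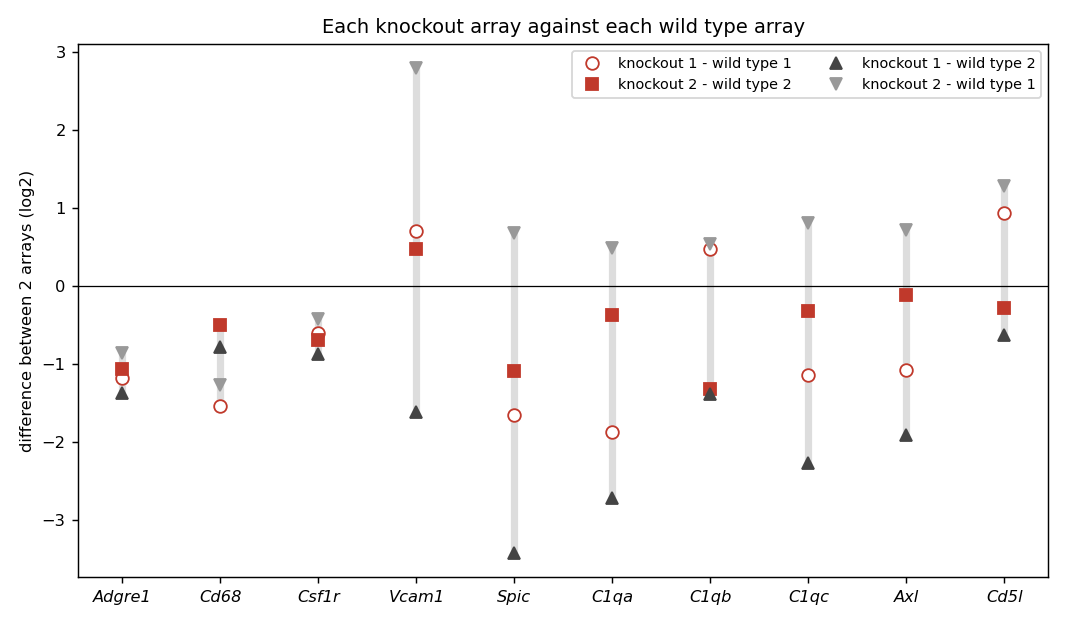
Log2 difference between 1 knockout array and 1 wild type array (vertical axis) for each gene, within title numbers (red) and across them (grey triangles), with a grey bar over the range of the 4 differences. All 4 differences lie below 0 in Adgre1, Cd68 and Csf1r, and the 2 crossed differences lie on opposite sides of 0 in the other 7 genes.

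Over the 10 genes the median genotype difference was -0.69, with 8 lower and 2 higher, and 41.5% of all genes had a lower knockout mean. Leaving out 1 array gave medians from -1.22 (without the knockout array numbered 2) to -0.07 (without the knockout array numbered 1). Leaving out an array also unbalances the title numbers between the genotypes. The median difference by title number was +1.14, with 9 of the 10 higher on number 2, where 57.6% of all genes were. All 9 were higher within both genotypes, where 33.3% of all genes were, and Cd68 was the exception. The median was +0.96 with arrays centred on their medians and +1.46 after repeated quantile normalisation, which placed the median of all genes at -0.10 and +0.00, against +0.09 in the deposited values.

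**Figure D3:**
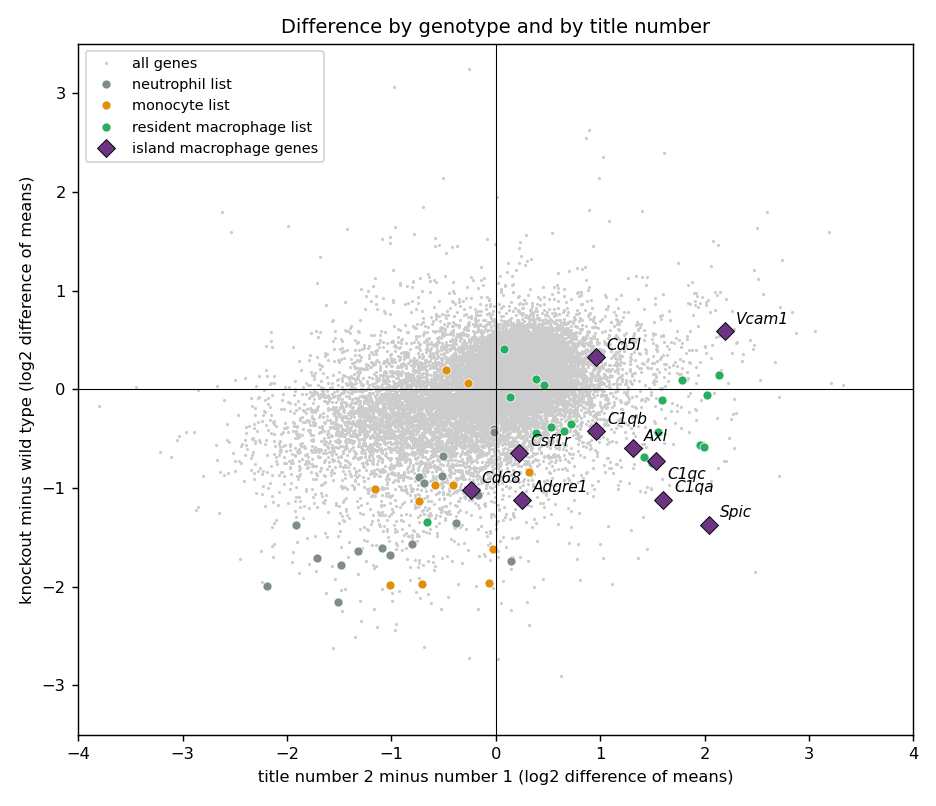
Genotype difference (vertical axis, log2) against title number difference (horizontal axis, log2) for all genes (grey, 3 lie outside the axes), the 10 island macrophage genes (diamonds, named) and 3 gene lists without those 10. Adgre1, Cd68 and Csf1r lie near 0 on the horizontal axis and below 0 on the vertical axis among the monocyte genes, and the other 7 lie to the right, at 0.96 to 2.20.

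Promoter sequences are shown for genes of both kinds, C1qb, C1qc and Spic from those that were higher on the arrays numbered 2 and Cd68 from those that were lower in the knockout. They come from RefSeq on the build GRCm38.p6 and run 5′ to 3′ from 250 bases before the gene's start to 50 bases after it. Promoters of 6 of the 10 genes were searched, these 4 with Cd5l and Axl. Adgre1, Vcam1 and C1qa had no promoter sequence in the source used. Csf1r was left out of the search by a rule on its chromosome. Capitals mark each AGGAAG on either strand, the core that PU.1 and SPIC, as ETS factors, can recognise. The regions are chr4:136886151-136886450 for C1qb, chr4:136892865-136893164 for C1qc, chr10:88682974-88683273 for Spic and chr11:69666121-69666420 for Cd68, all on the minus strand.
C1qb: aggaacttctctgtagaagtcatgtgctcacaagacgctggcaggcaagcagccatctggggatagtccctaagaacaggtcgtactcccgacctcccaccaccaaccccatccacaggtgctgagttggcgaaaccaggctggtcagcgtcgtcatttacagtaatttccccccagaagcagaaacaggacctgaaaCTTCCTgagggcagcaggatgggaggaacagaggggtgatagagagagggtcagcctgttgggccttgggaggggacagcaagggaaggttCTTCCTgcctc
C1qc: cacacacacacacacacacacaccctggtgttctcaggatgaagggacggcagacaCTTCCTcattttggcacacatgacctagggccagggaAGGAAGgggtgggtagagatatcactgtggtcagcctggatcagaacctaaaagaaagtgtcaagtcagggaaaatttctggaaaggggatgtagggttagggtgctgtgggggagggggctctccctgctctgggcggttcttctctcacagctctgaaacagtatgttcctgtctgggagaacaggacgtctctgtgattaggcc
Spic: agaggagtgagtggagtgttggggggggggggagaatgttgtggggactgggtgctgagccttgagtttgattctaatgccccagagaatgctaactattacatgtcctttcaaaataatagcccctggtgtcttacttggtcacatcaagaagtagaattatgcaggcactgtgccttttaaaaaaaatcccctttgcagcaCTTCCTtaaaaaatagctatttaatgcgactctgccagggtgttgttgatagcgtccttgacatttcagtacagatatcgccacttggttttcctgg
Cd68: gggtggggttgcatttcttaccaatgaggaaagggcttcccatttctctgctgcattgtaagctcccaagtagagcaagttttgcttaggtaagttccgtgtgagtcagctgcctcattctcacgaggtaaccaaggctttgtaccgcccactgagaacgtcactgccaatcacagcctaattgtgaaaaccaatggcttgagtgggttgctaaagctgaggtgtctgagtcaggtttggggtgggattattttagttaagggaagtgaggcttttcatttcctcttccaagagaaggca

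AGGAAG was found in 5 of the 6 promoters, and 35.4% of 32851 promoters of the same length hold it on either strand. Spic had 1 match, 47 bases before its start, and C1qb had 1 at 52 bases before its start and 1 after it, at base 40, all on the strand opposite to the gene. The longer GAGGAAG, which contains the shorter motif, was found in 3 of the 6, C1qc, Cd5l and Axl, and in 13.6% of all promoters. The Cd68 window held neither. A match is a description of these letters only, and whether any factor binds there was not measured.

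Genes that mark resident macrophages of the spleen and marrow but are not among the 10 were mostly ordered by title number. Of 18 such genes, some of which stand in the adhesion, engulfment and iron lists as well, 17 were higher on number 2 (57.6% of all genes), 15 of them without overlap (25.4% of all genes), and the median difference by number was +1.07. The limma test between numbers called 7 of the 18 (3.09% of probe sets) in the deposited scaling. After centring or repeated quantile normalisation it called 0, and 10 and 12 of the 18 were higher without overlap, beside 3058 and 4553 of the 19938 genes. Their median genotype difference was -0.37, with 13 lower (41.5% of all genes). Without overlap 2 were lower (9.62% of all genes) and 1 was higher (16.4% of all genes), and 0 passed.

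Fcna, which encodes the lectin ficolin A, read 5.91 and 8.0 in wild type and 5.92 and 7.88 in the knockout. The genotypes were nearly identical at each number. It differed by +2.03 ± 0.31 (SE, n = 2 per number; limma adjusted p = 0.0204) between the numbers and by -0.06 ± 0.85 between the genotypes. Cd163, the scavenger receptor for hemoglobin bound to haptoglobin, read 4.61 and 6.70 in wild type and 4.18 and 6.01 in the knockout. The mannose receptor gene Mrc1 (+2.00), the sialoadhesin gene Siglec1 (+1.59), Hpgd (+2.14), Sdc3 (+1.55) and the heme oxygenase gene Hmox1 (+1.78) were the others past the test between numbers. Vsig4, a complement receptor of resident macrophages, stood apart: it read 5.87 and 4.37 in wild type and 3.68 and 3.88 in the knockout, lower without overlap (limma unadjusted p = 0.0432). Clec4f, a lectin of Kupffer cells, differed by +0.41 between genotypes.

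The other genes of island adhesion were ordered by title number in both directions. Of 10, 4 were higher on number 2 without overlap (Itga4, Itgav, Siglec1 and Cd163) and 4 lower (Itgb1, Maea, Spn and Emb), where 25.4% and 20.9% of all genes were; after centring they were 3 and 4, and after repeated quantile normalisation 5 and 1. The limma test between numbers called 2 of them, Siglec1 and Cd163, and 0 under those scalings. Itga4, the erythroblast integrin chain that binds Vcam1, read 9.46 and 10.42 in wild type and 9.96 and 10.21 in the knockout. Icam4, an erythroblast ligand of macrophage integrins, was lower in the knockout by 0.57 ± 0.37 (SE, n = 2 per genotype), with a limma unadjusted p = 0.166. It was the 1 gene of 10 in the adhesion list that was lower without overlap, near the 9.62% of all genes. Higher without overlap were 0 of the 10, where 16.4% of all genes were. Maea, which encodes the erythroblast macrophage protein, was at -0.69 and Spn at -0.49, with overlap. Over the list the median genotype difference was -0.27 with 7 of 10 lower (41.5% of all genes). After repeated quantile normalisation it was -0.10 with 5 lower, beside 8681 of the 19938 genes.

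Engulfment receptors and their bridging proteins other than Axl were all higher on number 2 by their means, 13 of 13 (57.6% of all genes), and 11 of them without overlap (25.4% of all genes). For all genes the median by number was +0.09, but -0.21 among the brighter probe sets alone. Of these 13 genes, 11 were dim, with a mean below the table's median. After centring or repeated quantile normalisation 12 were higher and 4 were without overlap, beside 3058 and 4553 of the 19938 genes, so that after quantile normalisation the count was near that of all genes. Mertk, the TAM receptor that acts beside Axl, read 4.51 and 5.90 in wild type and 3.80 and 5.25 in the knockout. Its difference by number was +1.42 ± 0.38 (SE, n = 2 per number; limma adjusted p = 0.0735), and Mertk, Timd4 (-0.42) and Tyro3 (+0.33) had the lowest p by genotype. The bridging protein genes Gas6 and Pros1 differed by -0.05 and +0.09 between genotypes. The median genotype difference of the list was +0.09, +0.02 after centring and -0.01 after repeated quantile normalisation.

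Complement genes that act after or beside C1q had a median genotype difference of +0.02, and of -0.05 and -0.07 under the other scalings. C1ra and C1s1, which encode the proteases carried by C1q, were at +0.34 and +0.02. The anaphylatoxin receptor gene C5ar1 (-1.19) and properdin, Cfp (-1.05), which neutrophils and monocytes also express, were lower without overlap. Of the 11 measured genes these 2 were lower without overlap (9.62% of all genes) and 1, the factor B gene Cfb at +0.36, was higher (16.4% of all genes), counts near those shares, and 0 passed.

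Lysosomal genes had a median genotype difference of -0.22 over 13 measured. Of these 4 were lower without overlap (9.62% of all genes) and 2 higher (16.4% of all genes). After repeated quantile normalisation the median was -0.09. Then 1 was lower and 3 were higher without overlap, beside 2353 and 3360 of the 19938 genes. Grn, which encodes progranulin, was at -0.99, the protease gene Lgmn at -0.92 and the acid lipase gene Lipa at +0.71. Dnase2a, whose product digests the nuclei that macrophages engulf, read 6.83 and 7.82 in wild type and 7.07 and 7.70 in the knockout, a genotype difference of +0.06. Of genes for heme and iron recycling, Hp (haptoglobin, also a neutrophil granule protein) was at -1.29, the iron exporter gene Slc40a1 at -0.44 and Slc11a2 at -0.33. The median of that list was -0.02, -0.09 after centring and +0.02 after repeated quantile normalisation.

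Genes for macrophage growth and transcription went both ways. Spi1, which encodes PU.1, the ETS factor that drives Csf1r expression, read 9.51 and 8.31 in wild type and 7.93 and 6.05 in the knockout. Each knockout value was below both wild type values, and number 2 was below number 1 in both genotypes, the opposite order to Spic. Its genotype difference was -1.92 ± 0.70 (SE, n = 2 per genotype; limma unadjusted p = 0.0298, adjusted p = 0.9999). Irf8 was at -0.64, the growth factor gene Csf1 at +0.33 and Il34 at +0.41. Of 11 measured genes 4 were lower, and the median was +0.21.

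Markers of other cells that the gate could hold were read in the same way. A lower knockout mean was found for 41.5% of all genes and lower values without overlap for 9.62%, against which the next counts are set. Neutrophil markers, 18 of 18, were lower in the knockout, 15 without overlap, with a median of -1.47. Their mean log2 value was 10.6 and 9.64 in wild type and 9.20 and 8.39 in the knockout. Ltf (-1.35), Ly6g (-1.74) and Itgam (-1.57) had the lowest p. By title number their median was opposite in sign to that of the resident macrophage genes. It was -0.77 for number 2 minus number 1, and -0.96 and -0.39 under the other scalings. Of the 18, 17 had a lower mean on number 2, beside 8461 of the 19938 genes. Only 3 were lower without overlap, where 20.9% of all genes were, and 1 after repeated quantile normalisation. B cell markers had a median of -1.03 by genotype, with 9 of 12 lower without overlap, among them Ms4a1 (-2.00), Vpreb1 (-2.90) and Igll1 (-1.40). Rag1 was lower with overlap (-0.84). The 2 B cell genes with a higher knockout mean were Pax5 (+0.44) and Cd22 (+0.13). Dendritic cell markers had a median of -0.13 by genotype, with 1 of 13 lower without overlap, Zbtb46 at +0.49, Cd74 at -0.66 and Clec9a at -0.41.

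Stromal and endothelial genes, which could also carry Vcam1, were dim: 10 of 14 had a mean below the table's median. Their median by title number was +0.22, and +0.03 and +0.07 under the other scalings, with Vcam1 itself in the list. Cxcl12, a chemokine of marrow stroma, read 4.52 and 5.36 in wild type and 4.86 and 5.31 in the knockout. Lepr, a marker of marrow stroma, read 3.48 and 3.26 in wild type and 3.31 and 3.62 in the knockout, and Cdh5, which encodes VE-cadherin of endothelium, read 4.58 and 4.29 in wild type and 4.35 and 4.63 in the knockout. Neither was ordered by title number. Of the 14 genes 12 had a higher mean on number 2, where 57.6% of all genes did, and 4 were higher without overlap, where 25.4% were. Those 4 were Vcam1, Cxcl12, the endothelial receptor gene Kdr (3.83 and 4.11 in wild type, 3.89 and 4.64 in the knockout) and the collagen gene Col1a1 (5.92 and 6.28, and 5.86 and 6.41). Pecam1 (-0.61), Pdgfra (+0.38) and Col1a2 (+0.37) had the lowest p by genotype.

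Erythroblast markers were also ordered by title number, with 13 of 15 higher on number 2 (57.6% of all genes), 11 without overlap (25.4% of all genes), and a median of +0.76 that was +0.57 and +1.11 under the other scalings. Epb42, which encodes protein 4.2 of the red cell membrane, read 9.06 and 11.43 in wild type and 10.17 and 11.31 in the knockout. Alas2, the first enzyme of erythroid heme synthesis, read 10.18 and 12.09 in wild type and 11.13 and 12.24 in the knockout. By genotype 0 of the 15 were without overlap, where 9.62% of all genes were lower and 16.4% higher. After centring 1 was lower, beside 2260 of the 19938 genes. After repeated quantile normalisation 1 was higher, beside 3360 of them. Alas2 (+0.55), Tal1 (+0.27) and Epb42 (+0.50) had the lowest p by genotype. The part of these markers in the ordering of the 7 island macrophage genes was not tested.

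**Figure D4:**
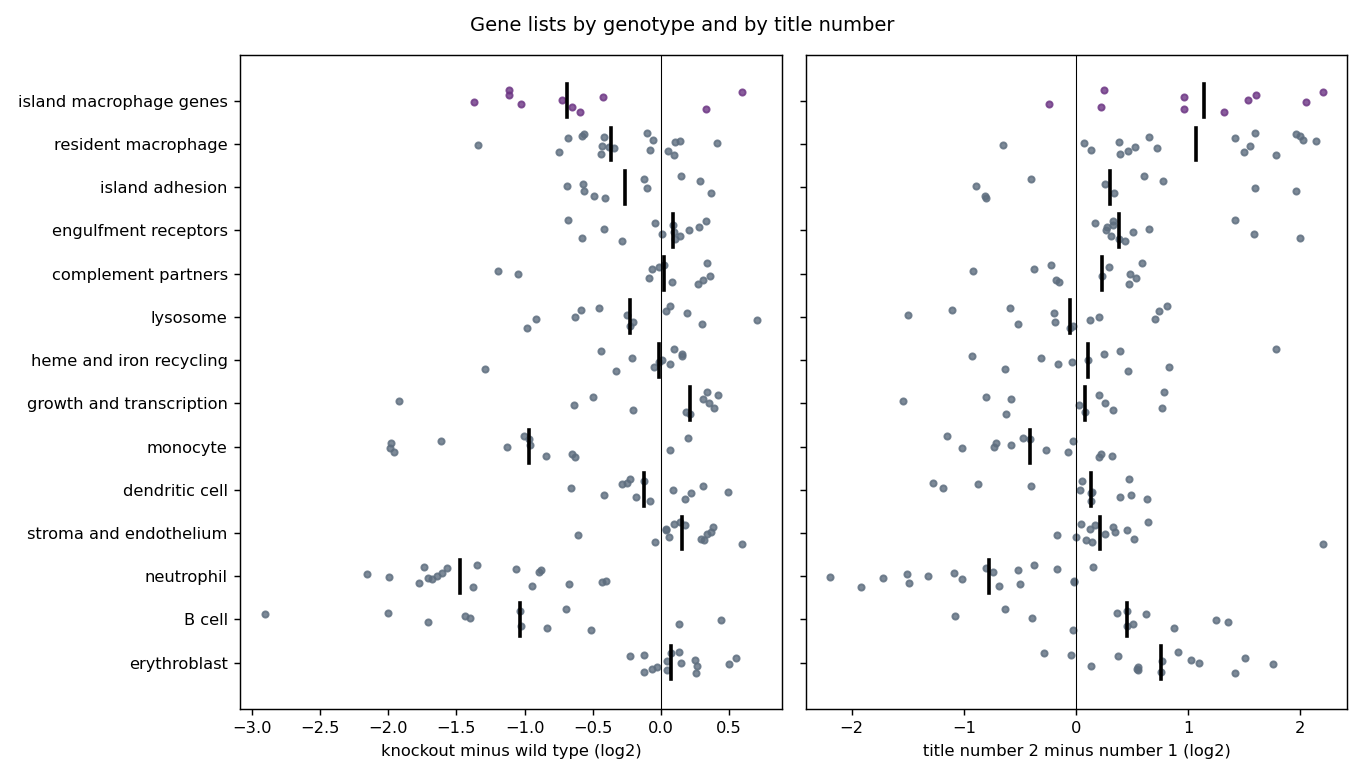
Genotype difference (left, log2) and title number difference (right, log2) of each measured gene (points) in the island macrophage genes and 13 other lists, with black bars for medians. The island macrophage genes have medians of -0.69 and +1.14, the resident macrophage list -0.37 and +1.07, the monocyte list -0.97 and -0.41, and the erythroblast list +0.08 and +0.76.

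The genes whose 4 values most resembled the median profile of the 10, each centred on its own mean, were Ctxn1, Selenop, H2ax, Gab3 and Piezo1. Their root mean square differences from that profile were 0.08 to 0.09 on the log2 scale over 4 arrays. The profile was highest on the wild type array numbered 2 (+0.79) and lowest on the knockout array numbered 1 (-0.73). Of the 10 genes themselves Axl lay nearest to it, at 0.26, and Vcam1 farthest, at 0.80. With 4 arrays many genes can take such a profile, and the likeness is a description only.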

How the data were processed

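RNA of 4 sorted erythroblast samples, 100 ng each, was labelled for Affymetrix whole-transcript arrays, per the labels' protocols. The deposited table holds log2 values of 35511 probe sets, which were used as they stand. The tools named are RMA, R 3.0.2 and limma, per the submitters' processing notes, which give no roles. RMA compresses differences of dim probe sets. Symbols came from the platform annotation, which names 1 gene for 21789 probe sets, several for 1621 and none for 12101.

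Genotypes, and separately title numbers, were compared by lmFit and eBayes (limma 3.58.1, R 4.3.3) with a single term, fitted to all 23410 annotated probe sets, with Benjamini-Hochberg adjustment over all of them. The genotype fit had 2 residual and 4.77 prior degrees of freedom and was tested on simulated data. With 2 arrays a group the smallest p of an exact permutation test is 0.333, so none was used. Without overlap means that both values of a group lie beyond both of the other. The number of arrays limits the precision. The 10 genes and all lists were chosen with earlier results of these data known. Named genes are Parp2, the 10, the 3 of lowest genotype p in each list, genes a description needs, and the 5 nearest to the 10's median profile. The AGGAAG motif and the alternatives for the title number comparison were added after the data were seen.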

Additional observations from a re-analysis of the deposited data

Results flagged for a closer look

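C1qb and Cd5l differed between the genotypes in opposite directions within the title numbers. C1qb was 0.47 higher in the knockout at number 1 and at -1.32 at number 2, so that the genotype difference at number 2 minus that at number 1 was -1.79. Cd5l was 0.93 higher at number 1 and lower at number 2, with -1.21 for the same quantity. Each of these differences rests on 1 array per genotype and number, and neither was tested.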

How the results depend on the processing

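The count of probe sets called between genotypes (0) ranged from 0 to 62 with 1 array left out and was 8 with trended and robust moderation, 274 with the title number as a replicate block and 486 at an unadjusted p under 0.05. With all 4 arrays, 0 of the 10 genes were called in any adjusted setting. In the main limma fit 2 of them, Adgre1 and Cd68, had an unadjusted p under 0.05. That count was 4 with the title number as a block, 3 after centring and 1 after repeated quantile normalisation. It was 1 with trended and robust moderation, with array weights or over all rows, and 0 of 8 among brighter probe sets. No label says that the number pairs the samples; its 2-minus-1 differences in the 2 genotypes correlated at 0.468 across probe sets. The count of the 10 genes lower without overlap (3) ranged from 3 to 9 with 1 array left out. The count higher without overlap (0) became 3 without the wild type array numbered 2 and 1 without the knockout array numbered 1. An ordering without overlap is easier to meet with 1 array in a group. Its share over all genes was not computed for these fits. The median difference of the 10 genes ranged from -1.22 to -0.07. Of 80 recomputed differences of single genes 7 reversed, all with 1 array left out: the ranges were -0.56 to +1.75 for Vcam1, -2.29 to +0.062 for C1qa, -1.35 to +0.50 for C1qb, -1.70 to +0.25 for C1qc, -0.46 to +1.11 for Cd5l and -1.49 to +0.30 for Axl. Adgre1 (-1.27 to -0.96), Cd68 (-1.40 to -0.64), Csf1r (-0.78 to -0.52) and Spic (-2.54 to -0.20) kept their sign. Between title numbers, the 724 calls became 2121 with genotype as a block, 182 among brighter probe sets, 2190 with trended and robust moderation, and 0 with centring, repeated quantile normalisation or all rows, with 0 to 1178 when 1 array was left out. Of the 10 genes 1 was called, against 5 with genotype as a block, 4 with trended and robust moderation, 0 with centring, quantile normalisation or all rows, and 0 to 5 with 1 array left out. Apart from the leave-one-out fits, whose construction leaves fewer samples, the cause was not tested. Averaging probe sets changed no value, since each gene had 1. Signal over background was not analysed here.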
